A study of Mus musculus with 2 samples.

Results

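Single-cell RNA-seq of mouse cells treated for 8 days (d8) with AICAR and leukemia inhibitory factor (LIF) held a small set of cells with reads of Cer1, Lhx1, Gata6, Dkk1, Cfc1, Pga5 and Sfrp1. These mesendoderm-like cells were chosen by a score, the mean over the 7 genes of the natural log of 1 plus reads per 10000 reads of the cell. The 450 d8 cells with the highest score are described here, of 9627 d8 cells (4.67%) and of 17720 cells in the whole series. Because these reads chose the cells, all comparisons with the other 9177 d8 cells are descriptions and carry no test.

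The study followed primed cells on their way back to naive pluripotency while AICAR activated AMPK, a kinase that senses low cellular energy. Primed mouse epiblast stem cells (mEpiSCs) of the line Oct4GIP, which carry an Oct4 promoter-driven GFP and puromycin resistance transgene, were grown on mouse embryonic fibroblast (MEF) feeders in medium containing FGF2 plus Activin A, and after 1 day were given AICAR and LIF in a basal medium. Cells were collected as primed mEpiSCs, at d8, after 16 days (d16), and after 10 further passages in 2iL (d16+10p), a medium with 2 inhibitors and LIF. Naive mouse embryonic stem cells (mESCs) with a Rex1-GFP reporter completed the 5 populations. The strain was 129/Ola for all. Each population was 1 tagged sample of 1 pooled library. Feeder cells may be among the tagged cells, and each reporter line was a single line.

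Mesendoderm is the transient progenitor of endoderm and part of the mesoderm. It forms at the anterior primitive streak under high Nodal and Wnt signals, and Eomes, Gsc, Mixl1 and Foxa2 are among its transcription factors. Cells that leave it as definitive endoderm or as the tissue ahead of the notochord secrete antagonists of Wnt, BMP and Nodal, and these antagonists shape the head end of the embryo. Cer1 encodes such an antagonist, of Nodal and BMP. Dkk1 and Sfrp1 encode antagonists of Wnt. Lhx1 encodes a LIM homeodomain factor of the head organizer, Gata6 a zinc finger factor of endoderm, and Cfc1 (Cryptic) a coreceptor for Nodal. Pga5 encodes a pepsinogen, the precursor of a stomach protease.

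The promoters of Cer1 and Otx2 are shown because Cer1 names the cells and because Otx2, a homeodomain factor of the anterior embryo, was among their leading genes outside the score. Windows of 300 bases, from 250 before to 50 after a transcription start, were taken from RefSeq (GRCm38.p6), and 27 of the 32 score and leading genes had at least 1 window. The Cer1 window lies at chr4:82885102-82885401 on the minus strand. The Otx2 window, 1 of 4 for this gene, lies at chr14:48665060-48665359 on the minus strand. Capitals mark TAATTA, which LIM homeodomain factors can bind, AGATAA, which GATA factors can bind, and TAATCC, which OTX factors and goosecoid can bind, each on either strand.
Cer1: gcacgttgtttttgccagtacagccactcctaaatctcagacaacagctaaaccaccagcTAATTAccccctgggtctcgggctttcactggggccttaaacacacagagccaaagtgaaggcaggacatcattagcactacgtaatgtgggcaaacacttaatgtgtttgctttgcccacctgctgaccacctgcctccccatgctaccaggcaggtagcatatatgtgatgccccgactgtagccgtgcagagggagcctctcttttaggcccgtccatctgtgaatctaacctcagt
Otx2: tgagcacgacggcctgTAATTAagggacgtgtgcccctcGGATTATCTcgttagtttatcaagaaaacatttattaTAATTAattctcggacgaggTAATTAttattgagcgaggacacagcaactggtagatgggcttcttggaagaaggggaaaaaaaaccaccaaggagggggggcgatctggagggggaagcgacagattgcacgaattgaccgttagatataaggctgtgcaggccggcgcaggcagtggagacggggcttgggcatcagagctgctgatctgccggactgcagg
The Cer1 window held TAATTA at base 61. The Otx2 window held 3 copies of TAATTA, and its GATA and OTX motifs overlapped. It was the Otx2 window with the most matches, 5, and the others held 1, 0 and 1. Some genes had several windows, which can overlap. Of the 38 windows of the named genes, 5 windows of 4 genes held TAATTA (13.2%), against 5.29% of all 32851 windows. TAATCC stood in 10.5% of the 38 windows against 7.06% of all windows, and AGATAA in 10.5% against 11.2%. TGTTTAC, a forkhead motif, AGGTGTGA, a T-box motif, and AATCCACA, a FOXH1 motif, stood in 0 of the 38 windows, and in 3.65%, 1.28% and 0.855% of all windows. These are matches of letters in a short window and were not tested.

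The score fell off steeply at first and then slowly. It ran from 2.598 in the highest cell over a median of 1.15 to 0.5686 in the lowest of the 450 cells. The next cell stood at 0.5677, the tenth cell inside the limit at 0.5822 and the tenth outside at 0.5587, so there was no gap at the limit. Reads of at least 4 of the 7 genes were found in 366 of the 450 cells (81.3%) and in 64 of the other d8 cells (0.697%). Of the other d8 cells, 7970 (86.8%) had reads of at most 1 of the 7 genes, and their median score was 0.

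**Figure D1:**
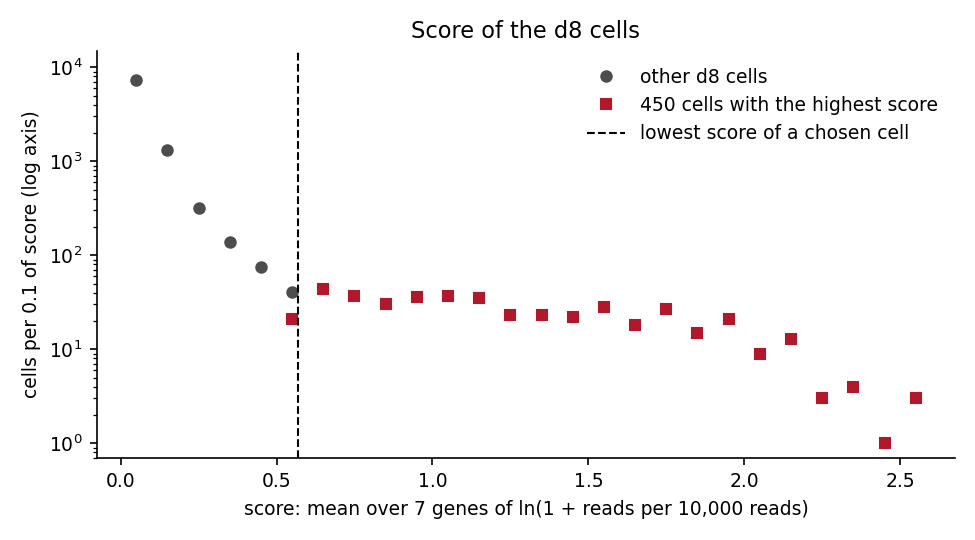
Number of d8 cells in each score interval of 0.1, plotted at its middle on a log axis, for the 450 cells with the highest score (squares) and the other d8 cells (circles). The dashed line is the lowest score of a chosen cell, 0.5686, and cells on its 2 sides run on without a gap.

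The cells were not deeper than the rest. They had a median of 11717.5 reads and 3632 detected genes, against 15703 reads and 4156 genes in the other d8 cells. Levels are given as counts per 1000000 reads (CPM), from reads summed over a group of cells, with a 95% Poisson interval. The table holds reads without molecular identifiers, so all intervals cover counting error only. Shares of cells with a read are given after every cell was thinned to 5000 reads, which left 423 of the 450 cells and 8449 of the others. No barcode was shared between tags.

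The score genes set the scale of the difference. Cer1 stood at 220 CPM (208 to 232) in the chosen cells and 3.88 CPM (3.59 to 4.18) in the other d8 cells. Lhx1 stood at 566.5 against 12.6 CPM. Gata6 stood at 190 against 4.85 CPM.
After thinning, Cer1 was read in 43.3% of the chosen cells, in 1.77% of the other d8 cells and in 0.464% of macrophage-score cells. These are the d8 cells with the highest score of 8 macrophage genes, 450 before the 2 chosen cells among them were left out, and stand for cells that should lack the gene. Dkk1 stood at 449 against 8.65 CPM and Cfc1 at 410 against 4.30 CPM. Sfrp1 stood at 940 against 21.5 CPM, and Pga5 at 548 against 3.98 CPM. These 7 differences are fixed by the choice of the cells.

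Each score gene was also left out of the score in turn. When 450 cells were chosen by the other 6 genes, 415 to 435 of them were among the cells described here. Pga5 then stood at 506 CPM (488 to 524) against 5.76 CPM, a log2 ratio of 6.23. Cfc1 stood at 384 against 5.22 CPM (log2 ratio 5.95) and Sfrp1 at 864 against 23.9 CPM (5.12). The log2 ratios of the left-out genes ran from 4.94 for Gata6 to 6.23 for Pga5. The 7 genes had been picked together as markers of these cells with earlier results known, so high ratios follow from that choice, and the values are a description.

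Outside the score, 4080 genes passed a level filter of 50 CPM in either group and 100 summed reads. Of these, 171 (4.19%) were at least 2-fold higher in the chosen cells and 218 (5.34%) at least 2-fold lower, on log2 ratios with a pseudocount of 1 CPM. The median log2 ratio was 0.06, and 90.5% of the genes differed by less than 2-fold. With the scaling of edgeR (TMM) the median moved to -0.10, and 135 genes were higher and 274 lower. A gene far below 50 CPM in 1 group could pass only through the other group, and was then past 2-fold by the filter itself. Counts of higher and lower genes in the lists below are therefore descriptions. The 25 genes with the highest ratios, called leading genes here, are grouped below by their known roles.

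**Figure D2:**
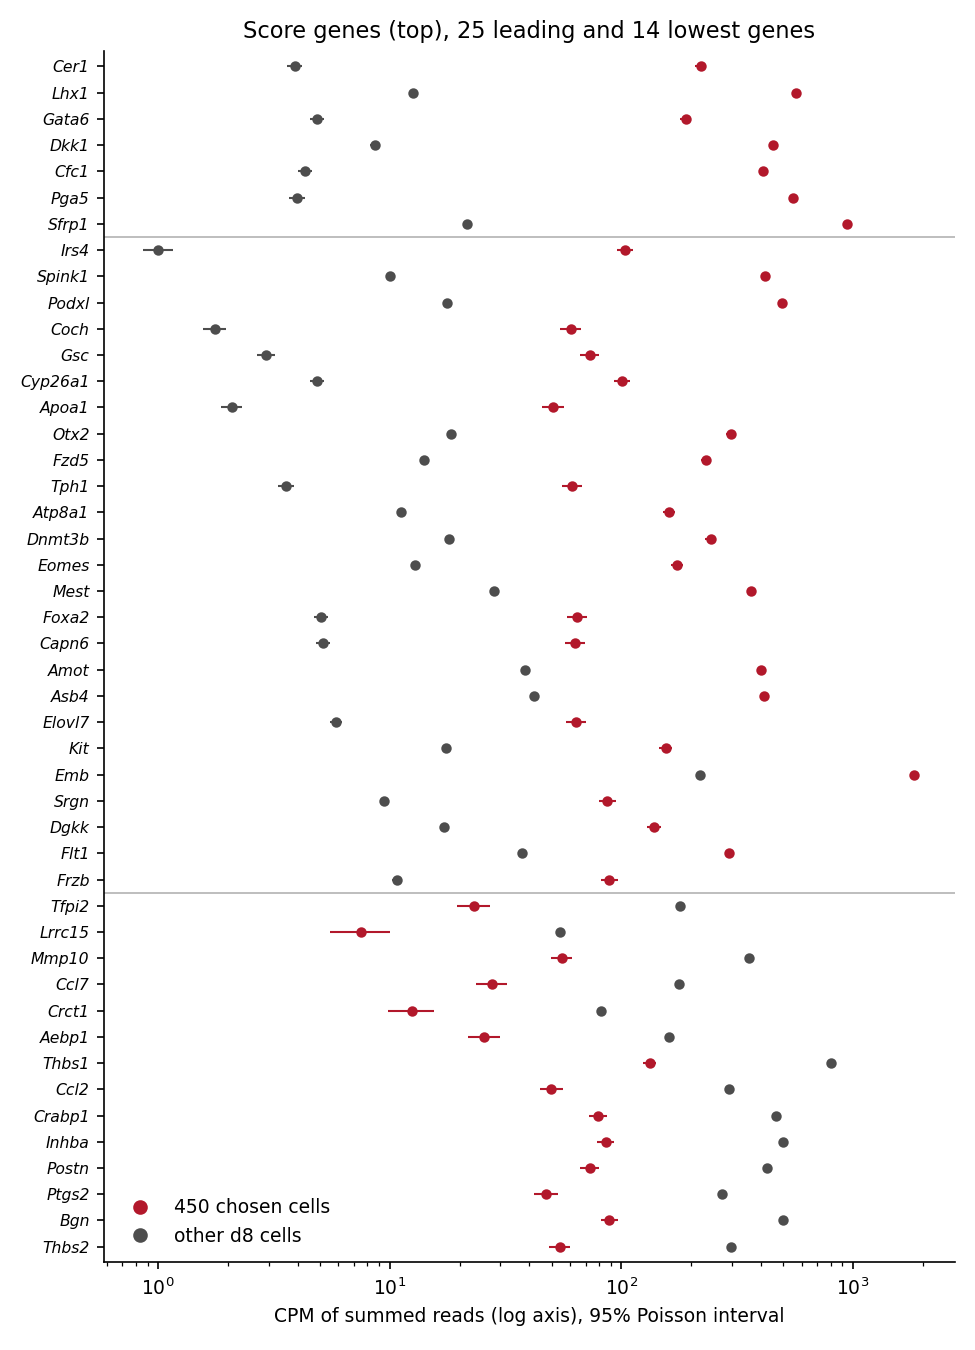
CPM of summed reads on a log axis, with 95% Poisson intervals, in the 450 chosen cells (red) and the other d8 cells (grey), for the 7 score genes, the 25 leading and 14 of the 15 lowest genes, divided by grey lines. The leading genes span log2 ratios from 5.71 (Irs4) to 2.93 (Frzb), and the lowest genes from -2.91 (Tfpi2) to -2.43 (Thbs2).

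Transcription factors of the anterior streak and the definitive endoderm were among the leading genes. Gsc, the homeodomain factor of the organizer, stood at 72.9 CPM (66.4 to 79.9) against 2.92 CPM (2.67 to 3.18), a log2 ratio of 4.24. Otx2 stood at 297 against 18.3 CPM, a log2 ratio of 3.95. Eomes, the T-box factor that starts the endoderm program, stood at 174 against 12.9 CPM (log2 ratio 3.66).
These 3 factors were read in 27.7%, 61.7% and 50.1% of the thinned cells, against 1.40%, 7.85% and 5.17% of the other d8 cells. Foxa2, a forkhead factor of endoderm and notochord, stood at 64.6 against 5.04 CPM (3.44). Hhex, of the anterior endoderm, stood at 85.7 against 13.8 CPM (2.55), and Foxa1 at 102 against 22.7 CPM (2.12). Of the 20 mesendoderm and definitive endoderm genes outside the score, 8 passed the level filter and 6 of these were at least 2-fold higher, 0 lower, against 4.19% of all tested genes. All 6 stood at 22.7 CPM or less in the other d8 cells. They passed the filter through the chosen cells alone, so being 2-fold higher followed from passing, and the count supports nothing further.

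Further endoderm factors were low in level and high in ratio. Sox17, the factor that marks definitive and extraembryonic endoderm, stood at 44.1 CPM against 0.587 CPM, below the level filter, with a log2 ratio of 4.83. Mixl1, a homeodomain factor of the streak, stood at 38.2 against 1.02 CPM (4.28), and Gata4 at 25.4 against 0.725 CPM (3.94). T (brachyury), the factor of the streak and the notochord, stood at 45.1 against 74.9 CPM (log2 ratio -0.72). Of its reads in the other d8 cells, 62.0% came from 442 cells chosen by a score of notochord genes that includes T itself, and without these the other d8 cells stood at 29.6 CPM, which turned the ratio to 0.59. This alternative was added after seeing the data. Over all 20 genes, of which 8 passed the filter, the median log2 ratio was 1.99. The median of 0.06 over the tested genes covers only genes above the filter, so the 2 sets are unlike. The list was chosen with earlier results known. Cxcr4, Pcdh7, Gata5, Foxa3, Trh, Tmprss2 and Cpm, also on this list, were within 2-fold with ratios from 0.16 (Cpm) to 0.83 (Trh), and Prdm1, a repressor of the early endoderm and germ line, stood at -0.59. Of the 20 markers, 6 were thus higher at a level above the filter, a description that does not test the name mesendoderm-like.

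**Figure D3:**
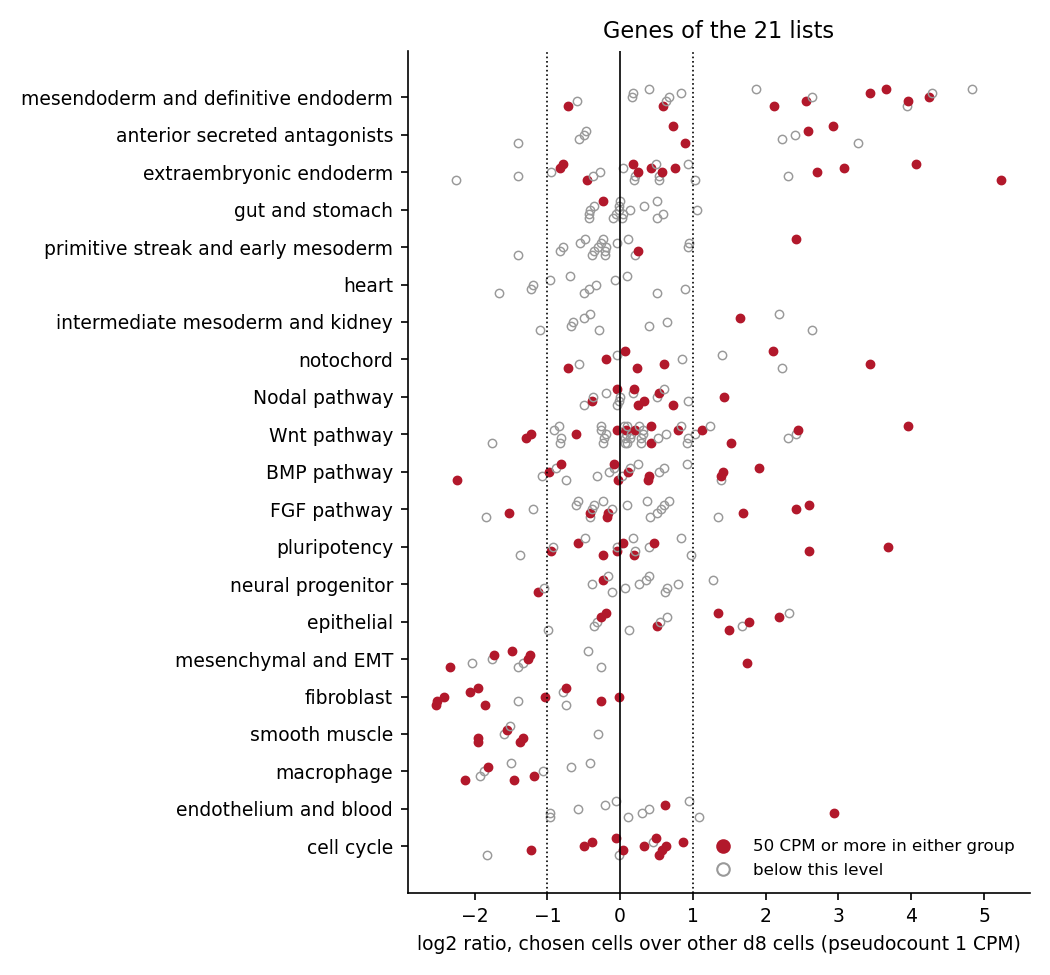
Log2 ratio of every gene of 21 lists, chosen cells over other d8 cells, with a pseudocount of 1 CPM. Filled points are genes that passed the level filter, open points are below it, and dotted lines mark 2-fold. The mesendoderm and definitive endoderm list reaches 4.83 (Sox17) around a median of 1.99 and holds T at -0.72, and the filled points of the fibroblast, smooth muscle and macrophage lists lie at -0.01 (Col3a1) or below.

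Gata6, Cer1, Lhx1 and Dkk1 are also expressed in the extraembryonic endoderm, so its genes were looked at as the nearest other identity. Of 26 genes, 12 passed the filter and 4 were at least 2-fold higher, against 4.19% of all tested genes. These 4, described next, stood at 12.7 CPM or less in the other d8 cells. They passed through the chosen cells alone, so the count followed from the filter, and Spink1, Apoa1 and Srgn are leading genes. Spink1, a protease inhibitor of early endoderm, stood at 418 against 10.1 CPM (log2 ratio 5.24). Apoa1, an apolipoprotein of liver and yolk sac, stood at 50.8 against 2.08 CPM (4.07), and Rbp4, which carries retinol, at 87.8 against 12.7 CPM (2.70).
Srgn, a proteoglycan core protein of parietal endoderm and blood cells, stood at 86.8 against 9.48 CPM (3.07). It was read in 30.4% of thinned macrophage-score cells, against 16.1% of the chosen cells and 3.35% of the other d8 cells. Of the genes that define the extraembryonic endoderm, some were near 0 in the chosen cells: Sox7 stood at 0.480 CPM, Afp at 0.639 CPM, and Amn and Cubn at 1.60 CPM each. Others were not: Dab2 stood at 59.8 against 50.5 CPM, Pdgfra at 36.0 against 18.4 CPM and Cited1 at 46.4 against 22.1 CPM (log2 ratio 1.03, below the filter). Lrp2, Plat and Sparc were lower in value, with ratios of -0.95, -0.82 and -0.78. Ttr stood at 11.8 against 1.59 CPM. The basement membrane genes Lamb1 (log2 ratio 0.57), Lamc1 (0.75) and Col4a1 (0.43) were within 2-fold.

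Secreted antagonists outside the score were measured in 11 genes, of which 4 passed the filter and 2 were at least 2-fold higher, against 4.19% of all tested genes. Frzb, a Wnt-binding protein related to Sfrp1, stood at 88.7 against 10.7 CPM (log2 ratio 2.93). Shisa2, which holds back Wnt and FGF receptors inside the cell, stood at 71.6 against 11.1 CPM (2.58). Both passed the filter through the chosen cells alone, so the count of 2 followed from the filter. Fst, which binds Activin, and Lefty1, the Nodal antagonist, were within 2-fold at log2 ratios of 0.89 and 0.72. The other d8 cells include 419 cells picked by a score of Lefty1, Lefty2, Fgf8 and Nodal. Those cells held Lefty1 at 2918.5 CPM and were not left out of this ratio. Hesx1, a homeodomain factor of the anterior embryo placed in this list, stood at 12.0 against 0.351 CPM, and Chrd, which binds BMP, at 31.8 against 5.99 CPM, both below the filter.

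The Wnt receptors Fzd5, Fzd6 and Fzd7 were at least 2-fold higher in the chosen cells, and the ligands Wnt4 and Wnt5a at least 2-fold lower. Fzd5, a Frizzled receptor and a leading gene, stood at 232 CPM (220 to 244) against 14.1 CPM, a log2 ratio of 3.95. Fzd7 stood at 238 against 43.0 CPM (2.44) and Fzd6 at 78.0 against 26.5 CPM (1.52).
Of the other receptors, Lrp6 passed the filter with a log2 ratio of 0.42, and Fzd1, Fzd2, Fzd3, Fzd4, Fzd8 and Lrp5 were below it with ratios from -0.22 (Fzd1) to 1.24 (Fzd3).
Tcf7l2, a nuclear effector of the pathway, had a log2 ratio of 1.12. The ligands Wnt4 and Wnt5a stood at 48.9 against 121 CPM and 34.2 against 81.6 CPM. The ligand Wnt11, at 27.2 against 4.73 CPM, and Lgr5, a receptor of R-spondins, at 42.0 against 7.12 CPM, had higher levels but were below the filter. Of the genes that canonical Wnt signals switch on, among them Lgr5 itself, Apcdd1 passed the filter with a log2 ratio of 0.08. Below the filter, Axin2, Lef1, Nkd1 and Znrf3 had ratios from 0.07 to 0.15, Sp5, Tcf7 and Rnf43 of 0.83, 0.93 and 1.03, and Notum, with 7 reads in the chosen cells, of -0.81. In all, 13 of 45 Wnt genes passed the filter, 4 of them at least 2-fold higher, against 4.19% of all tested genes, and 2 lower, against 5.34%.

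Nodal, BMP and FGF genes differed in single members, and their counts and those of the lists that follow stand against 4.19% of all tested genes higher and 5.34% lower. Of 18 Nodal genes, 8 passed the filter and 1 was 2-fold higher, the Activin receptor Acvr2b (54.2 against 19.5 CPM, log2 ratio 1.43). Nodal itself stood at 51.6 against 43.1 CPM and its coreceptor Tdgf1 at 153 against 134 CPM. The 419 cells picked by the score that includes Nodal were not left out of the other d8 cells here. Of 24 BMP genes, 11 passed the filter: the ligand Bmp2 (203 against 53.3 CPM), the effector Smad1 (238 against 88.2 CPM) and the pseudoreceptor Bambi (52.8 against 19.5 CPM) were higher, and the antagonist Grem1 was lower (79.5 against 378 CPM).
Id1 and Id3, which BMP signals switch on, had log2 ratios of -0.08 and -0.03. Of 24 FGF genes, 7 passed the filter. Fgf5, a ligand of the late epiblast, stood at 384 against 62.5 CPM (2.60), Fgf8, a ligand of the streak, at 81.1 against 14.3 CPM (2.42), and Flrt3, a membrane protein of the anterior endoderm, at 104 against 31.6 CPM (1.69). Fgfr1 was lower at 38.9 against 114 CPM (-1.53), and the FGF readout genes Spry2 (-0.18) and Dusp6 (-0.41) were within 2-fold.

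The leading genes also held receptors, enzymes and adhesion proteins. Irs4, an adaptor of insulin signalling, had the highest ratio: it stood at 104 CPM (96.1 to 112) in the chosen cells against 1.00 CPM (0.859 to 1.16), and was read in 21.8% of thinned cells against 0.438%. Podxl, a sialomucin of epithelial surfaces, stood at 494 against 17.6 CPM (log2 ratio 4.74). Cyp26a1, which degrades retinoic acid, stood at 101 against 4.84 CPM (4.13).
Kit, the receptor of stem cell factor, stood at 156 against 17.5 CPM, and Flt1, a VEGF receptor, at 292 against 37.3 CPM. The other 11 genes of the endothelium and blood list were not higher at a level above the filter, and Pecam1, Cdh5 and Tek stood at 7.36, 0.639 and 2.24 CPM. Emb (embigin), a partner of lactate transporters, was read in 94.6% of the thinned cells against 47.6% of the others, at 1837 against 218 CPM. Tph1, of serotonin synthesis, Elovl7, of fatty acid elongation, and Dgkk, a diacylglycerol kinase, had log2 ratios of 3.77, 3.23 and 2.94. Coch, Atp8a1, Mest, Capn6, Amot and Asb4 made up the rest with ratios between 4.48 and 3.26.

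Of 18 pluripotency genes, 9 passed the filter and 2 were higher, Fgf5 and Dnmt3b, a DNA methyltransferase of the epiblast (242.5 against 18 CPM, log2 ratio 3.68). Pou5f1 (Oct4), the core pluripotency factor whose promoter drives the reporter of these cells, stood at 29.4 against 57.8 CPM (-0.95), and Sox2 and Nanog at log2 ratios of -0.23 and 0.47. Among 15 epithelial genes 7 passed and 4 were higher: Cdh1 (E-cadherin) at 266 against 58.2 CPM, Epcam at 176 against 69.0 CPM, Krt7 at 62.8 against 17.7 CPM and Cldn6 at 216 against 76.3 CPM. Cdh2 (N-cadherin) stood at 266 against 79.2 CPM (1.74), so both cadherins were higher in the same sum of cells.

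Genes of other fates were mostly near 0 or within 2-fold. Of the 18 gut and stomach genes, Sox2 alone passed the filter, 0 were 2-fold higher above it, and Pgc, Tff1, Gkn1 and Cldn18 stood between 0 and 0.639 CPM. Of 20 primitive streak and early mesoderm genes, Fgf8 was higher. Mesp1, Tbx6, Msgn1 and Wnt3a had 0 reads in the chosen cells, where 3 reads would be 0.480 CPM. Of 12 heart genes, 0 passed the filter. Sall1 was the 1 gene of 11 in the intermediate mesoderm and kidney list that was higher (56.0 against 17.2 CPM, log2 ratio 1.65). Lhx1 is also expressed in the kidney, but the kidney factors Pax2 and Wt1 stood at 0.160 and 0.480 CPM. Of 12 notochord genes 7 passed: Foxa2 and Slc2a3, a glucose transporter, were higher, Shh stood at 64.4 against 54.9 CPM, and Noto had 0 reads. The other d8 cells here include the 442 cells chosen by the notochord score, of which Shh is a part. Those cells held Shh at 1024 CPM and were not left out of this value. Of 14 neural genes 2 passed, and Nes was lower (log2 ratio -1.13).

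The 15 genes with the lowest ratios included genes of matrix, wounding and inflammation. Thbs1, a matrix glycoprotein, stood at 132 CPM (123 to 142) in the chosen cells against 800 CPM (796 to 805) in the others, a log2 ratio of -2.59. Postn, a matrix protein of fibroblasts, stood at 73.1 against 424 CPM. The chemokines Ccl2 and Ccl7 had log2 ratios of -2.53 and -2.64.
Lists of other cell types held many lower genes too. Of 13 fibroblast genes 10 passed the filter, 7 were at least 2-fold lower, against 5.34% of all tested genes, and 0 higher, and the summed level was 861 against 2428 CPM. Of 8 smooth muscle genes, 5 passed and all 5 were lower, at a summed 406 against 1391 CPM. Of 12 mesenchymal genes, 6 passed and 5 were lower, among them Vim (log2 ratio -1.26) and Fn1 (-1.73), with Cdh2 the exception. The macrophage list, 10 genes of which 4 passed and all 4 were lower, was at 783 against 3160 CPM. The other d8 cells include cells with reads of these types, and their part in the ratios of the lowest genes was not tested beyond leaving out macrophage-score cells. Without these, 168 genes were higher and 190 lower.

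Cell cycle genes differed little. Of 14 genes 11 passed, 0 were 2-fold higher and Cdkn2a, a cell cycle inhibitor, was lower (32.6 against 77.8 CPM, log2 ratio -1.23). Mki67 stood at 80.3 against 43.4 CPM (0.87) and Top2a at 163 against 130 CPM (0.33). Xist, transcribed from the inactive X chromosome, stood at 378 against 219 CPM, and the Y-linked gene Ddx3y at 6.72 against 32.7 CPM. The study lists Oct4GIP and Rex1-GFP as XX lines, and which cells gave the Ddx3y reads was not tested. The proteins that carried the tags were encoded by Cd9 (log2 ratio -0.64) and Cd63 (-0.42).

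Most of the chosen cells also lay together on genes that the score did not use. The score genes had been picked as markers of these cells with earlier results known, so this is a description. Among the 20 nearest neighbours of each d8 cell, on 30 principal components of 2000 variable genes without the score genes, a median of 90% were chosen cells for a chosen cell and 0% for the others. At least 50% of neighbours were chosen cells for 360 of the 450 cells (80.0%) and for 38 of the 9177 others, of which 33 were among the 450 cells next in score. With reads of all 7 score genes, 78 of 79 cells reached 50%; with reads of 3, 42 of 73 did.
The other 90 chosen cells differed from the 360. Their macrophage list stood at 2202 CPM (2129 to 2277), against 310 CPM (295 to 327) in the 360 cells, and their median depth was 14248.5 against 11168.5 reads. Among the 450 cells, 2 were macrophage-score cells, and without these 2 the macrophage list fell from 783 to 501 CPM. Limited to the 360 cells, 205 genes were higher and 241 lower.

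The leading genes also stood together cell by cell. A thinned chosen cell had reads of 3 to 19 of the 25 leading genes with a median of 10, and another d8 cell of 0 to 13 with a median of 1. Reads of 5 or more were found in 406 of 423 chosen cells (96.0%) and in 380 of 8449 others (4.50%). In the 450 cells next in score the median was 3, and in the macrophage-score cells 1. Since these genes were ranked in the same cells, the counts describe how evenly they were spread and support nothing further.

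Within the chosen cells, 18 of the 25 leading genes had a higher level in each set of 150 cells with a higher score, and 7 did not follow this order. In the 150 cells with the highest score, the 150 in the middle and the 150 with the lowest, Irs4 stood at 195, 108 and 15.1 CPM and Sox17 at 90.8, 36.4 and 7.31 CPM. Otx2 stood at 443, 259 and 194 CPM. Podxl stood at 758, 520 and 221 CPM.
Eomes was level, at 171, 166 and 184 CPM, and so was Mest, at 365, 377 and 348 CPM. Foxa2 stood at 60.2, 83.8 and 51.2 CPM. Shh ran the other way, at 17.5, 75.3 and 98.7 CPM, and Asb4 stood at 325, 427 and 482 CPM. The macrophage list stood at 289, 317 and 1676 CPM in the 3 sets, and at 879 CPM in the lowest set without its 2 macrophage-score cells. The cells next in score outside the limit held Eomes at 73.6, Otx2 at 83.2 and Gsc at 30.7 CPM, against 10.4, 15.7 and 1.80 CPM in the remaining d8 cells.

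The cells were also divided by Pga5, itself a score gene. It was read in 267 of the 450 cells and not in 183, with median depths of 12419 and 11095 reads. The division followed the score, with a median of 1.492 with a Pga5 read and 0.847 without. Between them, 4056 genes passed the filter, 51 (1.26%) were at least 2-fold higher with Pga5 and 24 (0.592%) at least 2-fold lower. The division was chosen after the values were seen.
Cells with a Pga5 read held Sox17 at 67.1 against 5.18 CPM (log2 ratio 3.46), Irs4 at 157 against 13.8 CPM (3.42) and Spink1 at 606 against 98.8 CPM (2.60). Gata4 stood at 38.1 against 3.88 CPM, and the score genes Dkk1 and Gata6 at 590 against 210 CPM and 245 against 95.8 CPM. Hkdc1, a hexokinase, and Prss12, a serine protease, had the highest ratios, 3.64 and 3.62, and the basement membrane collagen Col4a1 stood at 293 against 81.1 CPM.
Cells without a Pga5 read held more of Fst, at 283 against 78.0 CPM, Shh, at 113 against 36.1 CPM, Fgf8, at 135 against 49.3 CPM, Nanog, at 108 against 39.4 CPM, and Chrd, at 56.1 against 17.5 CPM. Cer1, Lhx1, Gsc, Foxa2 and Otx2 differed by less than 2-fold, with log2 ratios from -0.36 (Gsc) to 0.34 (Otx2). Cer1 and Lhx1 are score genes, and a cell without a Pga5 read had to reach the limit through the other score genes. Sox17 and Gata4 were thus found mostly in the cells with Pga5, and Gsc, Foxa2 and Otx2 in both.
The macrophage list was at 521 CPM with and 1229 CPM without a Pga5 read. Among the 360 cells with at least 50% chosen neighbours it was at 307 and 318 CPM, with median scores of 1.556 and 0.971, and there the ratios were 3.05 for Sox17, 2.62 for Gata4, -2.12 for Fst and -2.33 for Shh. Mmp12 and Lgals3, genes of macrophages, were 2-fold lower with Pga5 over all 450 cells (-1.60 and -1.27) and level in the 360 (-0.14 and -0.05).

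**Figure D4:**
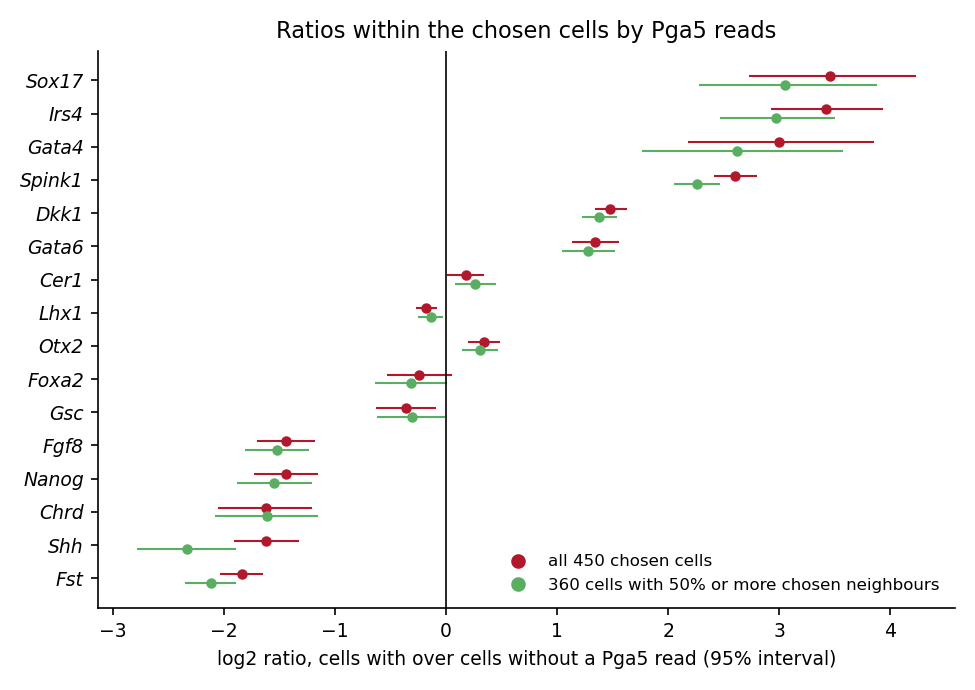
Log2 ratio between chosen cells with and without a Pga5 read, with 95% intervals, over all 450 cells (red) and over the 360 cells with at least 50% chosen neighbours (green). Sox17, Irs4, Gata4 and Spink1 lie above 2, Cer1, Lhx1, Otx2, Foxa2 and Gsc near 0, and Fgf8, Nanog, Chrd, Shh and Fst below -1.

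Sets of d8 cells chosen by related genes shared some cells with these. Of the 450 d8 cells with the highest score of T, Shh, Noto, Foxj1 and Chrd, 8 were among the chosen cells (1.78% of each set). Of the 450 with the highest score of Lefty1, Lefty2, Fgf8 and Nodal, 31 were (6.89%). The chosen cells made up 4.67% of all d8 cells, so the first share was below this value and the second above it. Foxa2 stood at 11.2 CPM in the rest of the first set and 20.7 CPM in the rest of the second, and Sox17 at 0.160 and 0.654 CPM. Spink1, a leading gene, stood at 97.4 CPM in the rest of the first set and 7.45 CPM in the rest of the second, so it was also read in the first set. Fst, which was within 2-fold between the chosen and the other d8 cells, stood at 160 and 113 CPM.

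Few cells of the other populations reached the lowest score of the 450. At or above it were 4 of 801 naive mESCs (0.499%), 46 of 1826 primed mEpiSCs (2.52%, exact binomial interval 1.85 to 3.35), 26 of 4315 d16 cells (0.603%, 0.394 to 0.882) and 11 of 1151 d16+10p cells (0.956%). With the limit set by 300 or by 600 d8 cells, 10 and 59 d16 cells reached it. The share was 4.67% at d8 by the choice itself. A cell given the wrong tag would also appear here, and how many were was not tested.
The 46 primed and 26 d16 cells were set against the rest of their own population, in samples that the ranking had not used. In primed mEpiSCs, 24 of the 25 leading genes were at least 2-fold higher, against 3.46% of the 4080 genes. The exception was Dnmt3b, at 165 against 82.8 CPM (log2 ratio 0.99). Gsc stood at 94.7 against 3.35 CPM, and Otx2 at 304 against 22.8 CPM.
In d16 cells, 23 of the 25 were at least 2-fold higher, against 3.36% of the genes. Irs4 stood at 55.6 against 0.921 CPM, Eomes at 133 against 7.96 CPM and Foxa2 at 66.7 against 7.51 CPM. The exceptions were Apoa1 (8.89 against 7.75 CPM, 4 reads above the limit) and Kit (40.0 against 52.2 CPM). T stood at 97.8 against 34.0 CPM.
In d16+10p cells 24 of the 25 were higher, against 8.01% of the genes, Kit being the exception (log2 ratio 0.48), and in the 4 naive cells 20 were, against 12.8%, of which 5 rested on 1 read each. The lowest genes of d8 did not carry over as widely: 7 of 15 were at least 2-fold lower in d16 cells (3.24% of all genes), 3 of 15 in primed (1.89%), 1 of 15 in d16+10p (5.59%) and 3 of 15 in the naive cells (17.8%).

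**Figure D5:**
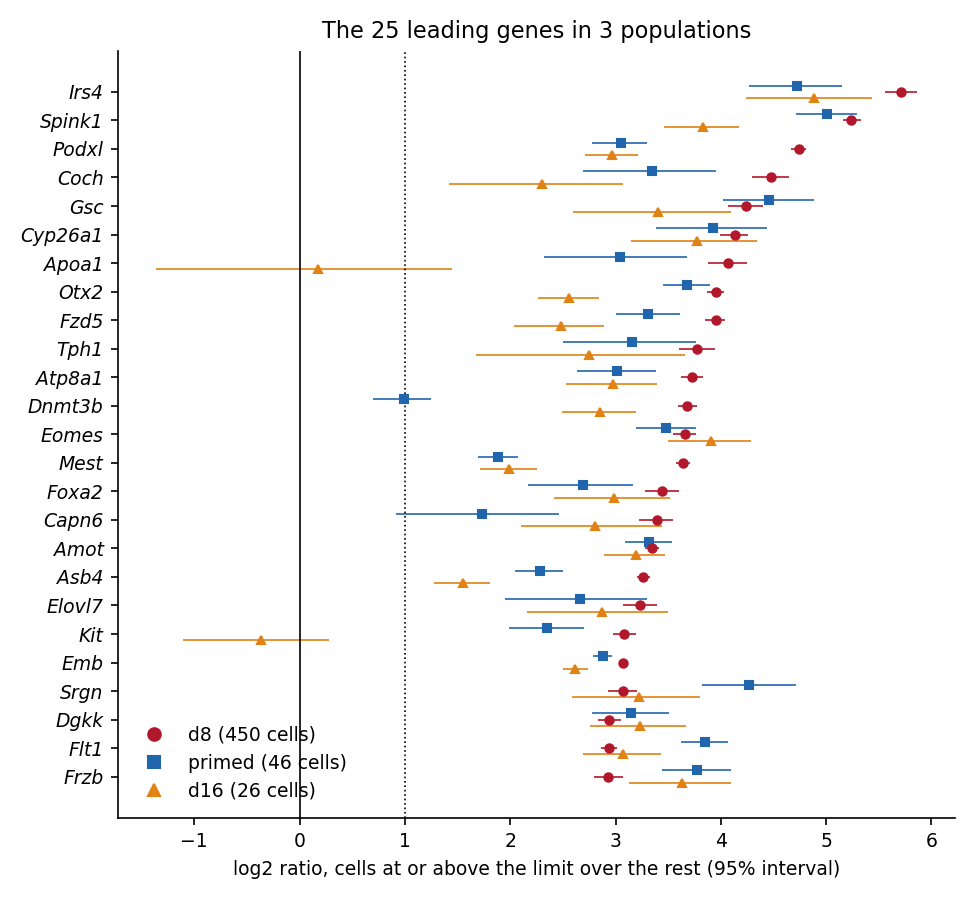
Log2 ratio of the 25 leading genes between cells at or above the lowest score of the 450 and the rest of the same population, with 95% intervals, at d8 (circles), in primed mEpiSCs (squares) and at d16 (triangles). The d8 values are fixed by the ranking. Apoa1 and Kit at d16 lie near 0, and Dnmt3b in primed cells lies at 0.99.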

How the data were processed

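The deposited values are raw counts, integer read numbers for 33963 gene symbols in 17720 cells, in 1 table of 5 tagged populations captured on BD Rhapsody. The authors trimmed reads with cutadapt 2.10, mapped them with Bowtie2 2.3.4.1 to Ensembl transcripts of GRCm38.p6, counted reads per gene symbol and barcode, and removed barcodes below the knee and cells with the least distinct tag as doublets. No molecular identifiers were collapsed, so amplified copies count more than once. No doublet caller was run and no cell filter was applied here.

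Cells were taken by the tag in their column name. Counts were summed over cells and scaled to 1000000 reads (CPM). Ratios carry a pseudocount of 1 CPM, an interval from the exact binomial split of the reads, and no test, since each population was 1 sample and the cells were chosen on these reads. Genes with 50 CPM in either group and 100 summed reads were ranked, without mitochondrial and score genes. Named are the 7 score genes, the 25 highest and 15 lowest ratios, and, of 21 lists (334 genes), genes past 2-fold or defining the cell type; values of some genes are not reported here. Genes of the Pga5 division outside these, and the division and neighbour counts, were chosen after their values were seen. The members and lists were chosen with earlier results of these data known. Python 3.11.15, numpy 2.4.6, scipy 1.17.1 and edgeR 4.0.16 (TMM factors) were used, and the interval code was tested on simulated data. Reads of near-identical gene copies may be split between symbols.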

Additional observations from a re-analysis of the deposited data

How the results depend on the processing

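The comparison at d8 was recomputed under 21 other settings, 3 of them added after seeing the data: those limited to members with at least 50% chosen neighbours, without macrophage-score cells on both sides, and without notochord-score cells among the others. Of 105 counts, 103 stayed within 1.5 times the value given. Without a minimum CPM, 19213 genes entered, and 648 were at least 2-fold higher and 944 lower. Otherwise 133 to 214 genes were higher and 184 to 274 lower. With TMM, the higher genes made up 33.0% of both directions, against 44.0%. The mesendoderm and definitive endoderm list held 6 to 9 higher genes, the extraembryonic endoderm list 3 to 6, and the leading genes higher at d16 numbered 23 to 24. Of 1680 ratios of 80 genes, 1353 stayed in their counting interval and 326 moved beyond it. The ratio of T moved from -0.72 to 0.59 without the notochord-score cells. The ratio of Fgf10, with few reads, turned from -1.20 to 0.17 when 600 cells were chosen; the cause was not tested. No leading gene fell below a log2 ratio of 2.21, and no lowest gene rose above -1.72. No paired analysis was possible because each population was 1 sample.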

Other observations

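Mest and Asb4, both imprinted, stood among the leading genes, and a list of 45 imprinted genes that includes them was written after this was seen. Of these, 19 passed the level filter, 5 were at least 2-fold higher in the mesendoderm-like cells and 0 lower. Leaving out Mest and Asb4, 3 of 17 were higher, against 4.19% of all tested genes, and the median log2 ratio of all 45 was 0.11. Mest, a hydrolase-like protein expressed from the paternal copy, stood at 363 CPM (348 to 378) against 28.2 CPM (log2 ratio 3.64). Its neighbour Copg2 stood at 61.4 against 19.3 CPM (1.62). Grb10, an adaptor that dampens insulin signalling, stood at 649.8 against 97.3 CPM (2.73), Asb4 at 413 against 42.1 CPM (3.26) and Ppp1r9a at 55.2 against 24.6 CPM (1.13). Igf2, Peg3 and Meg3 were within 2-fold, with log2 ratios of 0.28, 0.15 and 0.42.

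Of the 25 leading genes, 4 lie on the X chromosome: Irs4, Capn6, Amot and Dgkk. Of 136 tested genes on X, 12 (8.82%) were at least 2-fold higher, against 4.19% of all tested genes, and 9 lower, against 5.34%. The 12 include the 4 leading genes, so the share is not independent of them. On chromosome 19 the share of higher genes was 7.32% of 123. The median log2 ratio of the genes on X was 0.06, as over all tested genes.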
